A study of Homo sapiens with 12 samples.

Results

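Solute carriers are membrane proteins that move ions, sugars, amino acids, vitamins and metabolites across the plasma membrane and the membranes of organelles. Their expression was examined in HEK293 cells, a human embryonic kidney cell line transformed with adenovirus DNA. The genes were those whose symbol in the array's annotation is SLC, a family number, a letter and a member number. The rule found 20 genes among the 14884 named genes, each with 1 transcript cluster (the array's unit that gathers the probes of a transcript). These 20 are largely carriers that received an SLC number late, and 10 of them were formerly named MFSD genes, for the major facilitator superfamily. Symbols of the widely studied older families would fit the rule too, but these genes were not among those named through the annotation used here and were not analysed here. Their absence comes from the naming of clusters and not from a measured level, and the values describe these 20 genes, not the whole superfamily.

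Cells had received 5 nM of a synthetic miR-1825 mimic or of a negative control siRNA, and RNA was extracted at 24 h. Both groups were therefore transfected, and no untransfected cells were included. There were 6 arrays in each group. The question set by the series title is which mRNAs respond to miR-1825, a microRNA tied there to amyotrophic lateral sclerosis. Nothing in the labels says that replicates came from separate cultures, and the p-values therefore refer to the variation among these arrays, part or all of which may be technical.

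A microRNA guides the silencing complex to mRNAs, mostly through pairing of its bases 2 to 8, the seed. The transfected mimic carries miR-1825, whose gene lies on chromosome 20. RefSeq places the mature sequence on the plus strand of GRCh38.p14 at chr20:32237830-32237847. It is shown because it is the agent that separates the groups, with the seed in capitals.

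hsa-miR-1825: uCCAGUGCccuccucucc

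Among the 2370 mature human microRNA names in the RefSeq table, 0 others had the same bases 2 to 8 and 1, hsa-miR-199a-5p, had the same bases 2 to 7. A microRNA missing from those names would not be counted, so other microRNAs may share these bases. Whether the 20 carrier mRNAs hold sites for this seed was not examined.

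All 20 carriers had control means above the median of all 53617 clusters, 4.48 on the log2 scale of the deposited values, as did 71.9% of named genes. In 16 of the 20 the control mean was in the top 25% of all clusters, at or above 6.28. Of all named genes, 43.2% were in that top 25%, and 8 of the 20 carriers were in the top 25% of named genes. Each cluster has its own probes, so a brighter carrier does not necessarily have more transcripts than a dimmer one, and the order below is an order of array signal alone. The number of arrays limits the precision.

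The major facilitator genes SLC71A2 and SLC71A1, formerly MFSD14B and MFSD14A, were the brightest. On control arrays SLC71A2 ran from 10.01 through a median of 10.15 to 10.18, and on mimic arrays from 10.09 through 10.17 to 10.24. SLC71A1 ran from 9.96 through 9.97 to 10.07 on control arrays and from 9.97 through 10.00 to 10.10 on mimic arrays. Both lay above 96% of clusters, at the 96.7 and 96.4 percentiles of control means, and the control ranges of this pair overlapped. SLC49A4 followed at 9.25 ± 0.05 in controls (mean ± SD, n = 6), and encodes a lysosomal membrane protein formerly named DIRC2. SLC35F6, a relative of the nucleotide sugar carriers, had a control mean of 9.19 ± 0.06, and its control range overlapped that of SLC49A4.

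SLC38A12, formerly TMEM104 and numbered among the amino acid carriers of family SLC38, had a control mean of 8.79 ± 0.08. SLC9D1, formerly TMCO3 and numbered with the sodium/proton exchangers, had 8.37 ± 0.09. SLC75A1, formerly MFSD10, had 8.36 ± 0.10. The control ranges of SLC9D1 and SLC75A1 overlapped almost entirely. SLC60A2, also called NaGLT1 and described as a sodium-dependent glucose carrier, had 7.92 ± 0.11, and its relative SLC60A1 had 5.61 ± 0.11.

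**Figure D1:**
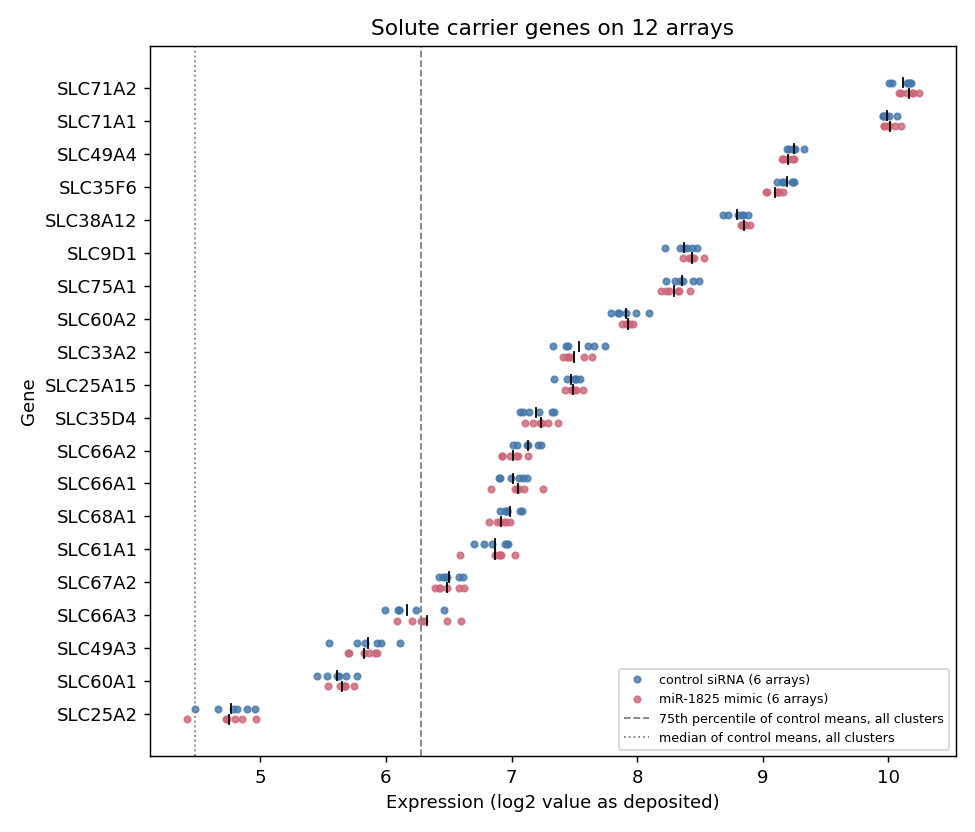
Log2 values as deposited (x axis) of the 20 solute carrier genes (y axis), with 1 point per array, 6 control arrays in blue and 6 mimic arrays in red, and group means as black ticks. Control means run from 4.77 for SLC25A2 to 10.12 for SLC71A2, and in every gene the ranges of the groups overlap.

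The mitochondrial carriers of the rule were SLC25A15 and SLC25A2. Both encode ornithine carriers of the inner mitochondrial membrane, and loss of SLC25A15 causes a urea cycle disorder. SLC25A15 had a control mean of 7.48 ± 0.08, in the top 25%, and SLC25A2 had 4.77 ± 0.17, the lowest of the 20 and close to the median of all clusters. Background was not measured, so it is not known whether SLC25A2 was expressed.

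SLC66A1 exports cationic amino acids from lysosomes, and SLC66A2 and SLC66A3 are its relatives with the same PQ-loop fold. Their control means were 7.01 ± 0.09, 7.13 ± 0.09 and 6.17 ± 0.17, and of these 3 SLC66A3 alone was outside the top 25%. The control ranges of SLC66A1 and SLC66A2 overlapped. SLC33A2, a relative of the acetyl-CoA carrier of the endoplasmic reticulum, had 7.54 ± 0.15. SLC35D4, formerly TMEM241 and a relative of Golgi nucleotide sugar carriers, had 7.20 ± 0.11. The major facilitator genes SLC68A1, SLC61A1 (a molybdate carrier) and SLC67A2 had 6.99 ± 0.07, 6.87 ± 0.11 and 6.50 ± 0.08. SLC49A3, a relative of SLC49A4, had 5.86 ± 0.19.

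Sequence upstream of the genes was examined in RefSeq promoters of GRCh38.p14, which reach from 250 bases before to 50 after a transcript start. A promoter was found for 15 of the 20 genes. SLC71A2 and SLC71A1, the brightest carriers, and SLC67A2, whose promoter has the fewest CpG dinucleotides of the 15, are shown to compare their CpG content. SLC60A1, the dimmest carrier with a promoter, is shown beside them. Only the 250 bases before the start are printed, 5′ to 3′ on the strand of the gene, with CpG in capitals. They lie at chr9:94374319-94374568 (plus strand), chr1:100037845-100038094 (plus strand) and chr2:102736889-102737138 (minus strand), and for SLC60A1 at chr1:205568764-205569013 (plus strand).

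SLC71A2: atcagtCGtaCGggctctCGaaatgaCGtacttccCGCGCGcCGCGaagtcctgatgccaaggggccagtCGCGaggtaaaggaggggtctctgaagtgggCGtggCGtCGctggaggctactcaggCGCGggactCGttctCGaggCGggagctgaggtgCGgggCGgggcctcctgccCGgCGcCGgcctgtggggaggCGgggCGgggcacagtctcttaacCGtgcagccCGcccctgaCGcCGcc
SLC71A1: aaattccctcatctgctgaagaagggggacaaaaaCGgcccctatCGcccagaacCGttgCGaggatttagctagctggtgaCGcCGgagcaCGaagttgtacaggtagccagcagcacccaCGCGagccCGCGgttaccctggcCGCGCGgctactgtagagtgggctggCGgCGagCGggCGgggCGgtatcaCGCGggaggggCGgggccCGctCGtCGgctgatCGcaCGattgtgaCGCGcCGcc
SLC67A2: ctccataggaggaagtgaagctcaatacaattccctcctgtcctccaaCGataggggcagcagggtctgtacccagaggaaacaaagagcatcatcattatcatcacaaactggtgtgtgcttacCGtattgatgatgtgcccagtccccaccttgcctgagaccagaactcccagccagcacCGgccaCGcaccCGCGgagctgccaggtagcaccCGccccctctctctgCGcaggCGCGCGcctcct
SLC60A1: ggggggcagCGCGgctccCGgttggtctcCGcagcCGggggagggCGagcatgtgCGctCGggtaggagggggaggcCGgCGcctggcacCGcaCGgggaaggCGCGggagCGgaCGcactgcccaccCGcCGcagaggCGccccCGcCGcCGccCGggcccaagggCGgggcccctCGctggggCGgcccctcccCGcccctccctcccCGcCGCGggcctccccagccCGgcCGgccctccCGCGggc

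The printed stretches hold 30, 30, 11 and 34 CpG, so the dim SLC60A1 had more than the bright SLC71 genes. Over the full window of 300 bases, the ratio of observed to expected CpG was 1.06 for both SLC71 genes, 0.60 for SLC67A2 and 0.81 for SLC60A1. As rounded, the ratio was at least 0.6 in 15 of 15 member promoters, with SLC67A2 at the bound. This was so in 49.1% of all 35116 promoters and 89.4% of the first promoters of 5290 named genes in the top 25%. The letters GGGCGG, on either strand, stood in 14 of the 15, against 45% of all promoters and 73.6% of those of the top 25%. SLC60A2 was the exception. CCAAT, on either strand, stood in 3 of the 15 (34.6% of all promoters, 38.1% of those of the top 25%) and TATAAA in 0 of the 15 (11.5% and 4.73%). Over the 15 genes the CpG ratio and the control mean had a Pearson correlation of 0.52, a description across genes whose probes differ. GC content gave -0.26.

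The mimic and control groups differed little in these carriers. With limma and Benjamini-Hochberg adjustment over all 53617 clusters, 0 of the 20 passed an adjusted p of 0.05, where the background is 0.0112% of clusters. The smallest adjusted p was 0.460. Among the brightest 25% of clusters tested alone, 0 of 16 carriers passed (background 1.81%), and with a trend and robust prior over all clusters 0 of 20 did (background 0.0727%). At an unadjusted p under 0.05, 0 were higher after the mimic (background 5.36%) and 1 was lower (background 5.40%). An exact permutation test over the 924 assignments of arrays put 2 of the 20 under 0.05, with a background of 11.4%. The named genes in the top 25%, where 16 of the carriers lie, had an uneven background: 10.8% were higher and 3.17% lower at an unadjusted p under 0.05, and 21.0% had an exact permutation p under 0.05. In 0 of the 20 did the groups separate without overlap (background 1.17% of all clusters, not counted within the top 25%). Means were higher after the mimic in 11 carriers and lower in 9, with a median log2 difference of 0.0062, beside 0.00024 over all named genes. The carriers' median had no stable sign: it was -0.011 after quantile normalization or without control replicate 6, and 0.021 with arrays centred on their medians. The median size of the difference was 0.04 in the carriers and 0.06 over named genes. Within the top 25% it was 0.043 in the 16 carriers and 0.053 over named genes.

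SLC66A2 had the smallest limma p. Its values ran from 7.01 through a median of 7.13 to 7.24 on control arrays and from 6.92 through 7.01 to 7.13 on mimic arrays. The mimic arrays were mostly low: 5 of 6 were below the control mean and 3 were below every control, while mimic replicate 4 was at the middle of the controls. The log2 difference was -0.12 with SE 0.05 (0.921-fold; limma unadjusted p = 0.0482, adjusted p = 0.460; exact permutation p = 0.0411). The unadjusted p was above 0.05 when control replicate 2, 3, 4 or 5, or mimic replicate 1, 2, 3, 5 or 6, was left out, and the log2 difference was then between -0.13 and -0.10.

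SLC35F6 was next. It ran from 9.11 through 9.20 to 9.25 on control arrays and from 9.02 through 9.12 to 9.16 on mimic arrays. All 6 mimic arrays were below the control mean and 2 were below every control, and the other 4 lay among control replicates 4, 5 and 6. The log2 difference was -0.10 with SE 0.04, or 0.936-fold. The limma unadjusted p was 0.0518, above 0.05, with an adjusted p of 0.469, and the exact permutation p was 0.0260. SLC68A1 also had all 6 mimic arrays below the control mean, with a log2 difference of -0.07 (limma adjusted p = 0.610).

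**Figure D2:**
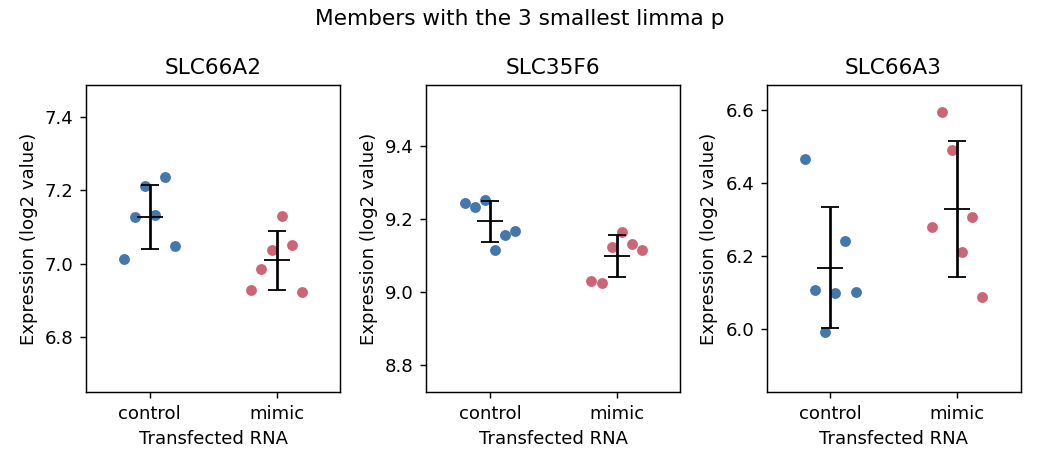
Log2 values (y axis, the same span in each panel) of the 3 carriers with the smallest limma p, by transfected RNA (x axis), with 6 arrays per group as points and mean ± SD in black. The groups overlap in all 3, with mimic means lower for SLC66A2 and SLC35F6 and higher for SLC66A3.

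SLC66A3 had the largest difference, in the opposite direction to its relative SLC66A2. It ran from 5.99 through 6.10 to 6.46 on control arrays and from 6.09 through 6.29 to 6.59 on mimic arrays. Control replicate 1, at 6.46, was higher than 4 of the 6 mimic arrays. The log2 difference was 0.16 (95% interval -0.05 to 0.37), or 1.12-fold, with a limma adjusted p of 0.583. The unadjusted p was 0.0275 without control replicate 1, where the log2 difference was 0.22, and 0.0463 without mimic replicate 6, where it was 0.21. SLC66A1, the lysosomal exporter, had 0.04 with an interval from -0.11 to 0.19. Whether the 3 relatives differ in response was not tested.

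**Figure D3:**
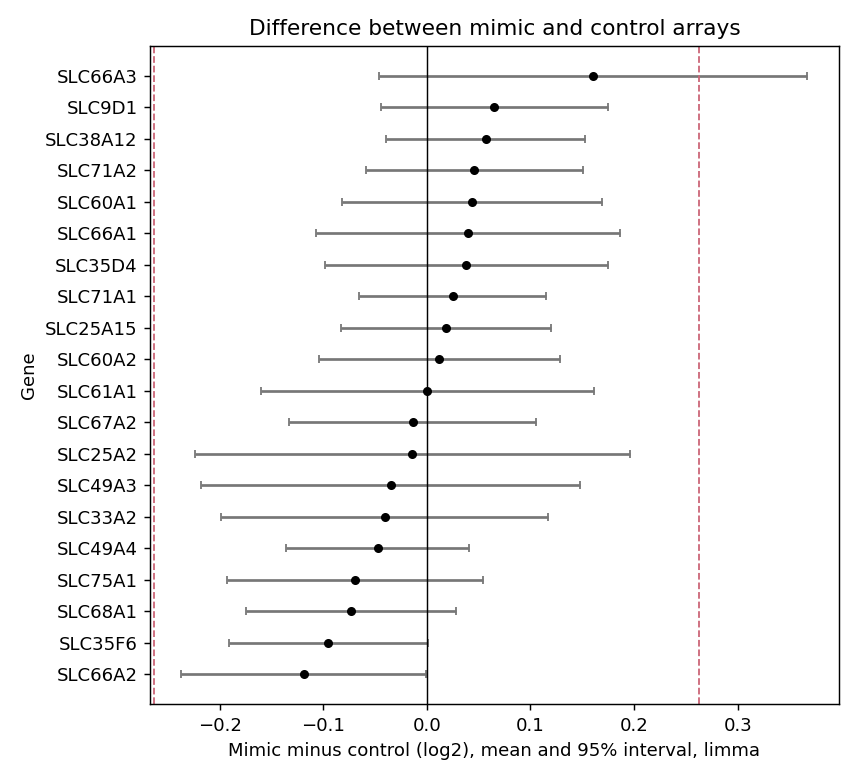
Difference between mimic and control means (x axis, log2) with the 95% interval from limma for each of the 20 carriers (y axis), with dashed lines at a 1.2-fold change in either direction. The interval reaches beyond 1.2-fold in SLC66A3 alone, and 19 of the 20 intervals include 0.

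The intervals bound the change that these arrays allow. In 19 of the 20 carriers the 95% interval lay within a 1.2-fold change in either direction, a bound chosen after the values were seen, and the exception was SLC66A3 with an upper limit of 1.29-fold. For SLC71A1, among the brightest, the interval ran from 0.956-fold to 1.08-fold. For SLC71A2 it ran from 0.960-fold to 1.11-fold. The ornithine carriers had 0.944-fold to 1.09-fold (SLC25A15) and 0.856-fold to 1.15-fold (SLC25A2, with values from 4.42 to 4.97 on mimic arrays and 4.48 to 4.96 on controls). SLC61A1 had a log2 difference of 0.00023 (SE 0.07).

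Among the remaining carriers, SLC9D1, SLC38A12, SLC60A1, SLC35D4 and SLC60A2 had log2 differences of 0.07, 0.06, 0.04, 0.04 and 0.01. SLC75A1, SLC49A4, SLC33A2, SLC49A3 and SLC67A2 had -0.07, -0.05, -0.04, -0.04 and -0.01. Each of these 10 had a limma adjusted p of at least 0.683. SLC38A12 had all 6 mimic arrays above the control mean, but only 1 of them was above every control.

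Spread between arrays was widest in SLC25A2, SLC66A3 and SLC49A3, which are among the dimmest carriers. The SD within groups, pooled over both, ran from 0.05 to 0.18 with a median of 0.08. SLC60A2 had an SD of 0.11 on control arrays and 0.03 on mimic arrays, and SLC38A12 had 0.08 and 0.03.

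**Figure D4:**
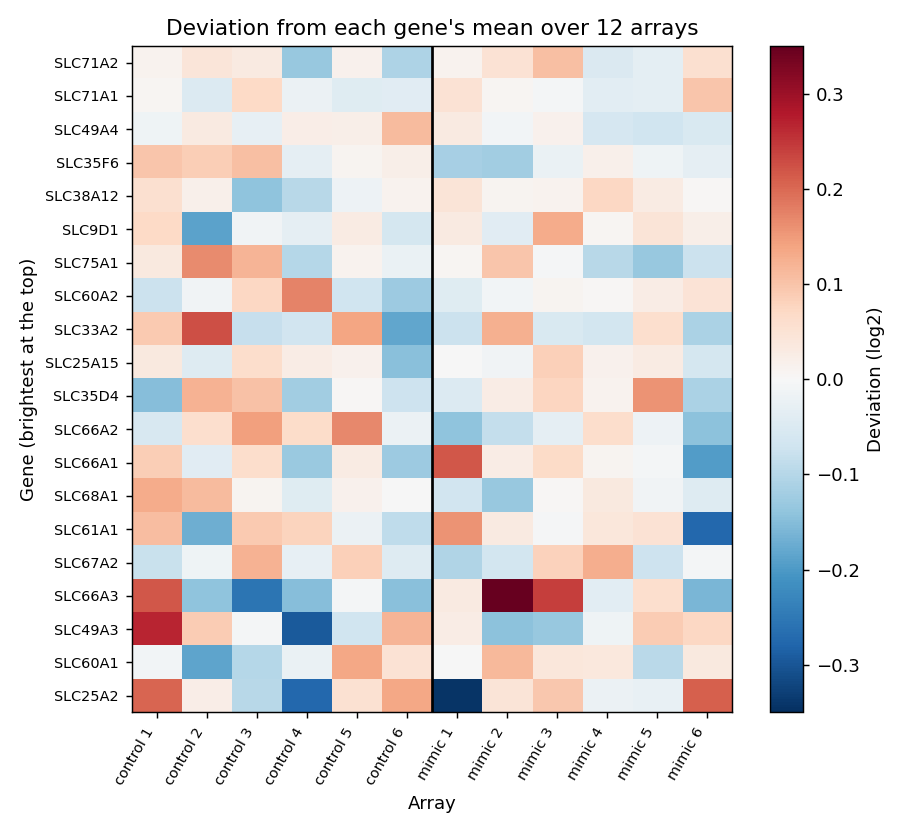
Deviation of each log2 value from the gene's mean over 12 arrays (colour, log2), for 20 carriers (rows, brightest at the top) on 6 control and 6 mimic arrays (columns). The strongest colours are in the dim carriers SLC66A3, SLC49A3 and SLC25A2, and no column is high or low throughout.

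No array stood apart over the whole set. The median deviation of the 20 carriers ran from -0.04 (control replicate 6) to 0.05 (control replicate 3). Control replicate 4 had 5 of 20 carriers above their own mean, and control replicates 1 and 5 had 14 each. Over all clusters the mean correlation between arrays was 0.992 within groups and 0.991 between groups.

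Carriers often need partner proteins, and other transport genes are carriers under other symbols. A list of such genes had 26 members named here out of 47. Of the 26, 13 were higher and 13 lower after the mimic, and 0 passed limma's adjusted p of 0.05. At an unadjusted p under 0.05 there was 1 in each direction. The background was 5.36% higher and 5.40% lower over all clusters, and 10.8% and 3.17% over named genes in the top 25%. The exact permutation p was under 0.05 in 8 of the 26 (background 11.4%, or 21.0% of named genes in the top 25%, where 23 of the 26 lie). Their median log2 difference was 0.0014. BSG, the chaperone that brings monocarboxylate carriers to the plasma membrane, was bright at 11.72 ± 0.03 in controls and had a log2 difference of -0.04. MTCH2 and MTCH1, outer mitochondrial membrane relatives of the mitochondrial carriers, had control means of 11.54 ± 0.05 and 9.73 ± 0.05 and log2 differences of 0.10 and -0.09 (limma adjusted p = 0.447 and 0.445). In MTCH1, alone of the 26, the groups did not overlap (background 1.17% of all clusters, not counted within the top 25%). Its control arrays ran from 9.67 to 9.80 and its mimic arrays from 9.58 to 9.67. The exact permutation p was 0.00216, the smallest possible. With a replicate block the limma unadjusted p went from 0.0412 to 0.0575 for MTCH2 and from 0.0406 to 0.0777 for MTCH1. It was 0.0895 for MTCH2 after quantile normalization and 0.102 for MTCH1 with centred arrays. It also went above 0.05 for MTCH2 without control replicate 1, 4 or 6 or mimic replicate 1, 2, 3 or 5, and for MTCH1 without control replicate 2, 3, 4 or 6 or mimic replicate 1, 3, 5 or 6. The phosphate exporter XPR1 had -0.02, and so did MPC1, a subunit of the mitochondrial pyruvate carrier.

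A further 55 genes carry an SLC number as an alternative name in RefSeq, a set chosen after the 20 had been counted, and 16 of them are also among the 26. With limma 0 of the 55 passed the adjusted threshold, and at an unadjusted p under 0.05 there were 3 higher and 1 lower. The background for these was 5.36% and 5.40% of clusters, and 10.8% and 3.17% of named genes in the top 25%. The exact permutation p was under 0.05 in 10 of the 55, or 18.2%. The background was 11.4% of clusters and 21.0% of named genes in the top 25%, where 30 of the 55 lie. The 3 higher at the unadjusted limma p were MTCH2, TMEM184C and NIPAL1, and the lower was MTCH1. In control arrays 30 of the 55 were in the top 25%, beside 16 of the 20.

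Markers gave a partial check of the cell type. Of the HEK293 list 3 of 7 genes were named, and vimentin (VIM) was at 8.08 ± 0.09 and the kidney developmental factor PAX2 at 5.59 ± 0.16 in controls. The third, CCNB1, the cyclin of mitotic entry, was at 9.80 ± 0.05 in controls and 10.01 ± 0.03 after the mimic. All 6 mimic arrays were above every control (background 1.17% of all clusters without overlap in either direction, not counted within the top 25%). CCNB1 had a log2 difference of 0.20, with a limma adjusted p of 0.189 over all clusters and 0.0142 in the brightest 25% (background 1.81%). Its part in the carriers' values was not tested. The 5 named kidney tubule markers, such as AQP1 and CUBN, had control means from 3.92 to 5.71, with 0 in the top 25%. The 3 fibroblast and 3 leukocyte markers also had 0 in the top 25%, and of 6 epithelial line markers EPCAM alone was there, at 7.95 ± 0.12. PAX2 of the HEK293 list was outside the top 25% too, and some tubule, fibroblast and leukocyte markers were brighter than it. These levels therefore do not separate HEK293 cells from the other types. The mean log2 level of the tubule markers ran from 5.18 to 5.38 on control arrays and from 5.09 to 5.29 on mimic arrays. The part of these markers in the carriers' values was not tested either.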

How the data were processed

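Expression was measured on 12 Affymetrix Human Gene 2.0 ST arrays. The authors deposited log2 values, 1 per transcript cluster, and the submitters' processing notes name Affymetrix Expression Console as the tool. The tool's version and settings and the genome build of the array design were not given in the sources used here, and log2 was read as the scale from the values, which run from 1.62 to 14.4 with array medians from 4.44 to 4.51. Clusters were named through the platform annotation (16098 of 53617), and the cluster with the highest mean stood for a gene.

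Mimic was compared with control in limma 3.58.1 (R 4.3.3, lmFit and eBayes, no trend or block) over all clusters, two-sided, with Benjamini-Hochberg adjustment and a threshold of 0.05. The script was tested on simulated data, with shifts of 0.25, 0.5, 1 and -0.5 log2 in 50 rows each. Of these rows 14, 37, 43 and 34 passed the adjusted threshold in the right direction, and 6 rows without a shift passed too. Even here the shift of 0.25 was mostly missed. Shifted rows were drawn from clusters at or above the median and were not matched to the carriers. They also eased the adjustment, which depends on the number of calls, and the real data had 6 calls. The recovery therefore checks the script, and the real test may detect fewer shifts. The exact permutation test used the difference of means, and its smallest possible p is 0.00216. Members and lists were chosen with earlier results of these data known. Carriers to be described were the 15 brightest, those with the smallest p and the brightest of each substrate class. The other members were added so that all 20 are covered, and partner genes were the 4 brightest and those with an unadjusted p under 0.05. Of 4 lists of carriers (amino acid response, ADP/ATP and phosphate, kidney tubule, neuron), 0 genes were named here, and substrate classes left 13 of the 20 unclassified, so carriers are described by gene. Alternatives were quantile normalization, median centring, filters on dim clusters, another prior, a replicate block, 1 cluster per gene and leaving out each array. Same-numbered arrays of the groups had deviations correlating between -0.08 and 0.04, so the numbers were not taken to pair arrays.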

Additional observations from a re-analysis of the deposited data

Results flagged for a closer look

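In 50 groups of 6 arrays (25 genes, each in control and mimic arrays) the extreme arrays were compared with their nearest neighbours. A wide gap was found in 1 group, and about 1 group in 20 would show one by chance. For the molybdate carrier SLC61A1, mimic replicate 6 was the lowest mimic array at 6.59, against 6.87 to 7.03 in the other 5.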

How the results depend on the processing

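No carrier passed the adjusted threshold under any alternative run, and all 20 have 1 cluster, so averaging a gene's clusters gives the same values. The count lower at an unadjusted p under 0.05, 1 as reported, was 2 with quantile normalization, with a trend and robust prior, with 1 cluster per named gene, among clusters at or above the median and in the brightest 25% of clusters, and 0 with arrays centred on their medians. The second gene was SLC35F6. Without single arrays the count lower ran from 0 to 2, and the count higher ran from 0 to 1. The share of all clusters at an unadjusted p under 0.05 was counted for the main fit alone (5.36% higher and 5.40% lower). Counts under the other settings therefore have no background beside them and are not a result about the carriers. In the brightest 25%, the 16 carriers tested had no call (smallest limma adjusted p = 0.154). With a replicate block 0 passed and 1 was lower at an unadjusted p under 0.05, the same as without the block. Among the 20 carriers and the partner genes described by name, the block ended the unadjusted calls of MTCH2 and MTCH1 and no other. Its effect on other genes was not examined. The count of 16 in the top 25% was 8 against the 75th percentile of named genes.

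Differences near 0 changed sign. The carriers' median of 0.0062 was -0.011 after quantile normalization and ran from -0.011 to 0.023 without single arrays. After quantile normalization SLC60A2, SLC25A15 and SLC61A1 had log2 differences of -0.017, -0.0058 and -0.024. With centred arrays SLC67A2 and SLC25A2 had 0.0014 and 0.0010. Without single arrays the ranges were -0.012 to 0.048 for SLC60A2, -0.081 to 0.00016 for SLC33A2, -0.0093 to 0.032 for SLC25A15, -0.034 to 0.055 for SLC61A1, -0.040 to 0.0091 for SLC67A2, -0.097 to 0.015 for SLC49A3, -0.070 to 0.053 for SLC25A2 and -0.043 to 0.00032 for MPC1. The cause was not tested.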

Other observations

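Array signal among the 20 carriers spanned 5.36 log2 units in controls, and the SD was larger on control than on mimic arrays in 13 of the 20, beside 57.7% of named genes.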
